A study of Mus musculus with 9 samples.

Results

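Sperm swim, change direction and capacitate under the control of ion channels that sit in the flagellum. CatSper is a calcium channel of the principal piece, opened by alkaline cytoplasm and by voltage. Its pore is built from 4 different subunits around which several auxiliary proteins assemble, and in mouse the loss of any pore subunit leaves males infertile. SLO3, a potassium channel that opens as the cytoplasm turns alkaline, sets the membrane voltage of mouse sperm, and the proton channel HV1 lets protons leave a cell. The 8 genes described here are the pore subunits Catsper1, Catsper2, Catsper3 and Catsper4, the auxiliary subunits Catsperb and Catsperd, the SLO3 gene Kcnu1 and the HV1 gene Hvcn1. They are 8 of 19935 genes measured. Each was chosen by its symbol in the array's probe table, and each had exactly 1 unshared row on the array.

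RNA of the whole testis, taken from untreated males of the Swiss albino strain at 8, 16 and 24 days of age, was hybridized to Affymetrix arrays, 3 per age and 9 in all. The design text calls the 3 arrays of an age biological replicates and places the ages in the first wave of spermatogenesis, in which germ cells reach meiosis and then the haploid stages in step. The labels do not say whether an array holds the tissue of 1 animal or of several. Replicates 1 and 2 carry those numbers in their titles, and the array without a number is called replicate 3.

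The deposited values are log2 values relative to the median of each row over the 9 arrays, so that 0 is the middle array of that gene. A gene's values can be compared between ages, but they hold no absolute level and cannot be compared in height between genes. The number of arrays limits the precision. In whole testis, fewer cells of a type and less RNA per cell cannot be told apart. Known markers of germ cell stages were used to describe the progress of the wave. They were chosen with earlier results of these data known, so their counts are not an independent check. All 10 pachytene spermatocyte markers rose at 16 against 8 days, with a median log2 change of 3.51. At 24 against 16 days 7 of these 10 rose again, with a median of 0.79. None of 10 late haploid spermatid markers passed the test at 16 against 8 days, where their changes ran from -0.09 to 0.09, with a median of 0.02. All 10 rose at 24 against 16 days, with a median of 3.70. Of 10 early haploid spermatid markers, 3 rose at 16 against 8 days, with a median of 0.02. At 24 against 16 days 9 of them rose, with a median of 2.78. The early list includes Catsperz, a CatSper subunit gene described below. It was 1 of the 3 that rose at 16 against 8 days, by 3.29, against 0.75 for Spaca1 and 0.75 for Actl7b.

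Among the channel genes 3 patterns were measured. Catsper2, Catsperb and Catsperd rose at 16 days and rose again at 24 days. Catsper1, Catsper3, Catsper4 and Kcnu1 did not pass the test at 16 days and rose 5.81-fold to 10.6-fold at 24 against 16 days. Hvcn1 fell in both intervals, so the name of a sperm channel group does not describe its behaviour in these arrays. Calls are from limma's moderated test with Benjamini-Hochberg adjustment over all 19935 genes and a threshold of 0.05. At 16 against 8 days 3 of the 8 genes rose and 1 fell, where 10.4% of all genes rose and 14.3% fell. At 24 against 16 days 7 rose and 1 fell, where 13.2% of all genes rose and 20.1% fell. At 24 against 8 days again 7 rose and 1 fell, where 19.2% of all genes rose and 35.2% fell. The F test over the 3 ages called all 8 genes, with adjusted p between 8.51e-08 and 2.85e-05, and it called 50.7% of all genes. With each array centred on its median, the genes called at 24 against 16 days were 2861 higher and 1927 lower, against 2641 higher and 4004 lower as deposited, and at 24 against 8 days 4389 higher and 5236 lower, against 3825 higher and 7015 lower. The counts for the 8 channel genes were the same in both scalings, and centring moved the 24 against 8 days comparison by 0.12 on the log2 scale.

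**Figure D1:**
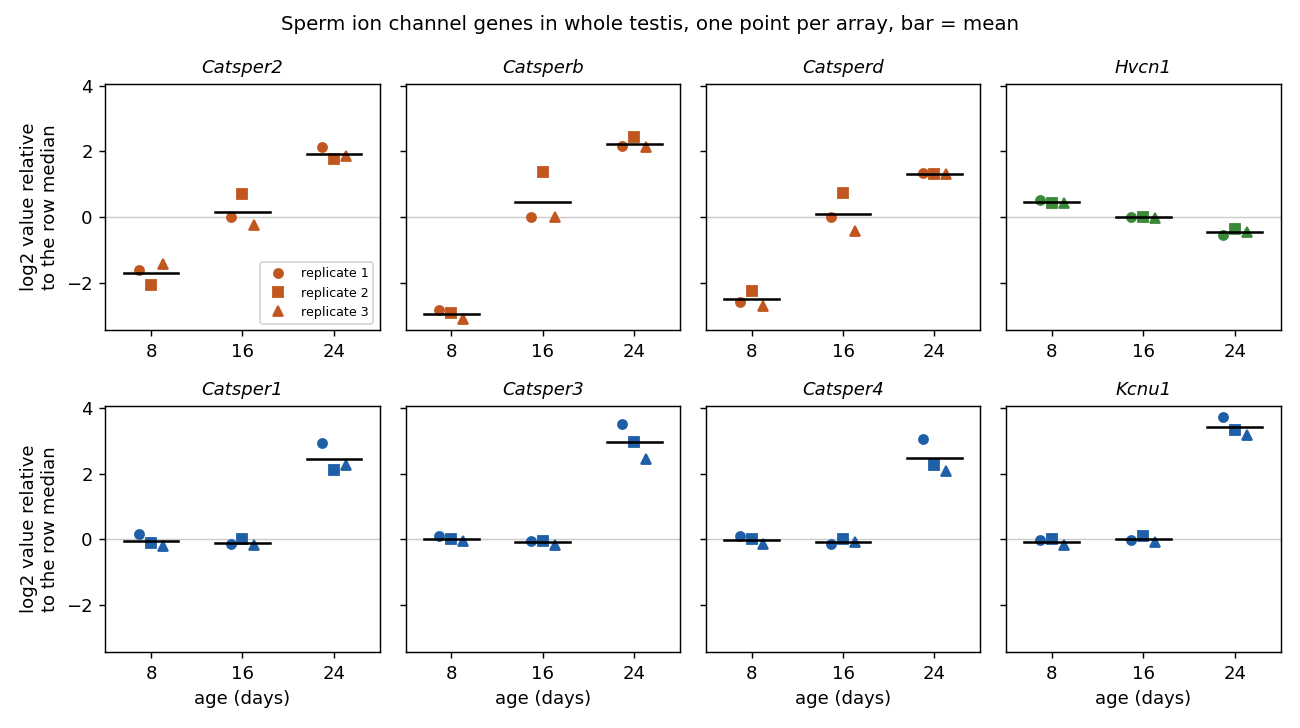
Log2 value relative to the row median (vertical axis) at 8, 16 and 24 days (horizontal axis) for each of the 8 genes, with a point per array, the symbol giving the replicate, and a bar at the mean of 3 arrays. Catsper2, Catsperb and Catsperd climb in both steps, Catsper1, Catsper3, Catsper4 and Kcnu1 lie near 0 until 24 days, and Hvcn1 steps down.

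Catsperb (gene ID 271036, chromosome 12) encodes CatSper beta, a membrane protein with a large part outside the cell that belongs to the canopy over the pore. Its log2 values were -2.84, -2.93 and -3.10 in replicates 1, 2 and 3 at 8 days, 0.00, 1.36 and 0 at 16 days, and 2.15, 2.43 and 2.14 at 24 days. No array of an age overlapped an array of another age, and replicate 2 of 16 days lay well above the other two arrays of that age. Catsperb rose by 3.41 ± 0.31 on the log2 scale at 16 against 8 days (standard error, n = 3 arrays per age, as for all changes given here), or 10.6-fold with a 95% interval of 6.59 to 17.2 (adjusted p = 3.92e-05). At 24 against 16 days it rose by a further 1.79 ± 0.31, or 3.45-fold (adjusted p = 0.00252). Over the whole span it rose 36.7-fold (95% interval 22.8 to 59.2) and it ranked 32nd of the 19935 genes by this change, the highest of the 8.

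Catsperd (gene ID 106757, chromosome 17) encodes CatSper delta, an auxiliary subunit that the channel needs for its stability. Its values were -2.57, -2.26 and -2.69 at 8 days, 0, 0.72 and -0.43 at 16 days, and 1.36, 1.30 and 1.31 at 24 days. The 3 arrays of 24 days lay close together, while those of 16 days were spread over more than 1 log2 unit, with replicate 2 highest. No arrays of different ages overlapped. Catsperd rose by 2.61 ± 0.24 at 16 against 8 days, or 6.09-fold (adjusted p = 4.54e-05), and by 1.22 ± 0.24 at 24 against 16 days, or 2.33-fold (adjusted p = 0.00474). The second rise was no longer called against a minimum of 1.5-fold (adjusted p = 0.233).

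Catsper2 (gene ID 212670, chromosome 2) encodes a pore subunit, and it was the only pore gene of the 4 to rise by 16 days. Its values were -1.60, -2.07 and -1.42 at 8 days, 0, 0.72 and -0.25 at 16 days, and 2.14, 1.78 and 1.85 at 24 days. The ages did not overlap. Catsper2 rose by 1.85 ± 0.24 at 16 against 8 days, or 3.61-fold (adjusted p = 0.000490), and by 1.77 ± 0.24 at 24 against 16 days, or 3.41-fold (adjusted p = 0.000725). Of its log2 change between 8 and 24 days, 51.1% had been reached by 16 days, against 65.6% for Catsperb and 68.1% for Catsperd.

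Promoter windows of 300 bases, from 250 before to 50 after the annotated start, came from RefSeq (GRCm38.p6) for 5 of the 8 genes: Catsper2, Catsper3, Catsper4, Catsperb and Catsperd, the last with 2 starts. Catsper1, Kcnu1 and Hvcn1 had no window in the table. Windows are shown for the 3 genes called higher at 16 against 8 days, and for Catsper3 as a gene that rose later. Each is given 5′ to 3′ on the strand of the gene. Capitals mark matches, on either strand, to the core of the cAMP response element (TGACG), to the MYB core (CAGTTG) or to the SOX core (ACAAT).
Catsperb, chr12:101404423-101404722, plus strand: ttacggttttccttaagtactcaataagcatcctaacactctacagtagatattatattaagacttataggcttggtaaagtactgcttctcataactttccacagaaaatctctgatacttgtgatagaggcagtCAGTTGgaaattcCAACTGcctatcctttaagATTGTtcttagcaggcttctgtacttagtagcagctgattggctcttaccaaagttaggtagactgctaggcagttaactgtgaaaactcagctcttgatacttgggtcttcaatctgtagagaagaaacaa
Catsperd, chr17:56626797-56627096, plus strand: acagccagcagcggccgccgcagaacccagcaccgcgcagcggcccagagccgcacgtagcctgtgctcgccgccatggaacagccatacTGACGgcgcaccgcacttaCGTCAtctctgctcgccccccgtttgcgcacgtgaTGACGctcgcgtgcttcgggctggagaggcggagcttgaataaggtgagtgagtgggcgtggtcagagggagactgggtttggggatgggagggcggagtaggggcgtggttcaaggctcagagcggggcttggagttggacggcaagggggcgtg
Catsper2, chr2:121413743-121414042, minus strand: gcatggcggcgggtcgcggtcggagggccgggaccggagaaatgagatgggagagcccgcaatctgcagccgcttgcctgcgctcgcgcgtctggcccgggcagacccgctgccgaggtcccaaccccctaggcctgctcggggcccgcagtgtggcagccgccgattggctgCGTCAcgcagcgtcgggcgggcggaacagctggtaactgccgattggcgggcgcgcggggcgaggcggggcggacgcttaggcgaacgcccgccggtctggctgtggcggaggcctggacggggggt
Catsper3, chr13:55784329-55784628, plus strand: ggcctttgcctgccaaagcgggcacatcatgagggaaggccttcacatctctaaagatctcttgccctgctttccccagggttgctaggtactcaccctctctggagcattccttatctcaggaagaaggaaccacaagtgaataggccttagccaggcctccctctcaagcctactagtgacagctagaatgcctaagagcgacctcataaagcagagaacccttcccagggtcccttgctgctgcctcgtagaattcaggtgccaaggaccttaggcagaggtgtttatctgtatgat

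These windows differed in base composition. G and C made up 74.7% of the Catsper2 window and 66.7% of the first Catsperd window, but 38.0% of the Catsperb window, where the median of all 32851 windows was 52.7%. Catsperb held CAGTTG once on each strand, with first bases at positions -114 and -101 from the start, and a match to ACAAT on the opposite strand at -82. The first Catsperd window held TGACG at positions -160 and -106 and, on the opposite strand, at -141, and Catsper2 held it on the opposite strand at -77. Of all windows, 20.8% held TGACG, 13.7% CAGTTG and 31% ACAAT on either strand. The full cAMP response element TGACGTCA, which contains TGACG and was found in 1.79% of windows, and the RFX core GTTGCC, in 12.5%, were in none of the 6 windows of the channel genes. The windows of Catsper3 and Catsper4 and the second Catsperd window held no match to any of the 5 motifs, which says only that these letters were not there.

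The remaining 3 pore genes rose in the same interval as the SLO3 gene. Catsper1 (gene ID 225865, chromosome 19), whose protein has a long histidine-rich start, had values of 0.16, -0.13 and -0.21 at 8 days, -0.14, 0 and -0.18 at 16 days, and 2.94, 2.11 and 2.26 at 24 days. The arrays of 8 and 16 days overlapped, and all 3 arrays of 24 days lay above them. The change at 16 against 8 days was -0.05 with a 95% interval of -0.48 to 0.39, and the rise at 24 against 16 days was 2.54 ± 0.20 on the log2 scale, or 5.83-fold (adjusted p = 1.56e-05). Catsper3 (gene ID 76856, chromosome 13) had values of 0.08, 0 and -0.04 at 8 days, -0.04, -0.07 and -0.19 at 16 days, and 3.52, 2.95 and 2.43 at 24 days. It showed the same order of ages, with a change of -0.11 (95% interval -0.60 to 0.37) in the first interval. Its rise of 3.07 ± 0.22 in the second was the largest of the 4 pore genes, 8.38-fold with a 95% interval of 5.99 to 11.7 (adjusted p = 9.50e-06). Catsper4 (gene ID 329954, chromosome 4) had values of 0.09, 0 and -0.13 at 8 days, -0.14, 0.00 and -0.10 at 16 days, and 3.06, 2.25 and 2.07 at 24 days. Its change was -0.07 (95% interval -0.54 to 0.41) at 16 against 8 days, followed by a rise of 2.54 ± 0.21, or 5.81-fold, at 24 against 16 days (adjusted p = 2.79e-05). Catsper1 and Catsper4 differed by a root mean square of 0.11 on the log2 scale over the 9 arrays, the closest of the 28 pairs among the 8 genes.

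Kcnu1 (gene ID 16532, chromosome 8) encodes the pore subunit of SLO3. Its values were -0.03, 0 and -0.19 at 8 days, -0.03, 0.10 and -0.09 at 16 days, and 3.72, 3.31 and 3.18 at 24 days. Arrays of 8 and 16 days overlapped, and those of 24 days stood more than 3 units above them. The change at 16 against 8 days was 0.07 (95% interval -0.24 to 0.37), and the rise at 24 against 16 days was 3.41 ± 0.14, or 10.6-fold with a 95% interval of 8.61 to 13.1 (adjusted p = 4.61e-07). It was the largest second-interval rise of the 8 genes and ranked 82nd of the 19935 genes by log2 change.

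**Figure D2:**
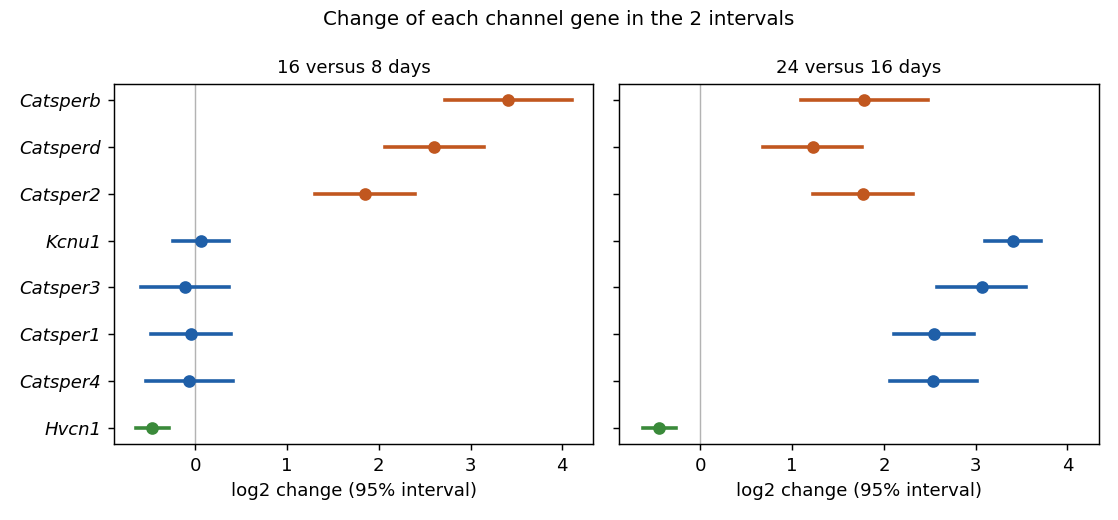
Log2 change of each gene (horizontal axis, point, with its 95% interval as a line) at 16 against 8 days (left) and 24 against 16 days (right). In the left panel the intervals of Kcnu1, Catsper3, Catsper1 and Catsper4 include 0, and in the right panel no interval does.

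Whether a gene changed more in the second interval than in the first was tested directly in the same fit. The 4 later genes did, with second-minus-first differences of 3.35 ± 0.24 for Kcnu1 (adjusted p = 4.74e-05), 3.18 ± 0.37 for Catsper3 (adjusted p = 0.000762), 2.61 ± 0.37 for Catsper4 (adjusted p = 0.00216) and 2.59 ± 0.34 for Catsper1 (adjusted p = 0.00139). Over all genes 3.06% had a larger and 2.31% a smaller second change. Catsper2 had a difference of -0.08 ± 0.42 (adjusted p = 0.940), with a 95% interval of -1.02 to 0.86, so that a gap of this size in either direction was not resolved. Catsperb and Catsperd had smaller second changes by 1.62 ± 0.54 and 1.38 ± 0.42, but these did not pass the test (adjusted p = 0.144 and 0.106). Without replicate 3 of 16 days Catsperd passed it, with a difference of -1.91 (adjusted p = 0.0187).

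By the size of the change between 8 and 24 days, the order was Catsperb at 5.20, Catsperd at 3.83, Catsper2 at 3.62, Kcnu1 at 3.48, Catsper3 at 2.95, Catsper1 at 2.496, Catsper4 at 2.47 and Hvcn1 at -0.92 on the log2 scale. The 95% interval of Catsperb, 4.51 to 5.89, lay apart from that of every other gene in this order. Those of Catsperd (3.29 to 4.37), Catsper2 (3.08 to 4.17), Kcnu1 (3.17 to 3.78) and Catsper3 (2.47 to 3.44) overlapped their neighbours, as did those of Catsper3, Catsper1 and Catsper4. Hvcn1, from -1.10 to -0.74, lay apart at the other end. These are differences in change, which is a fold per gene, and not in level.

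**Figure D3:**
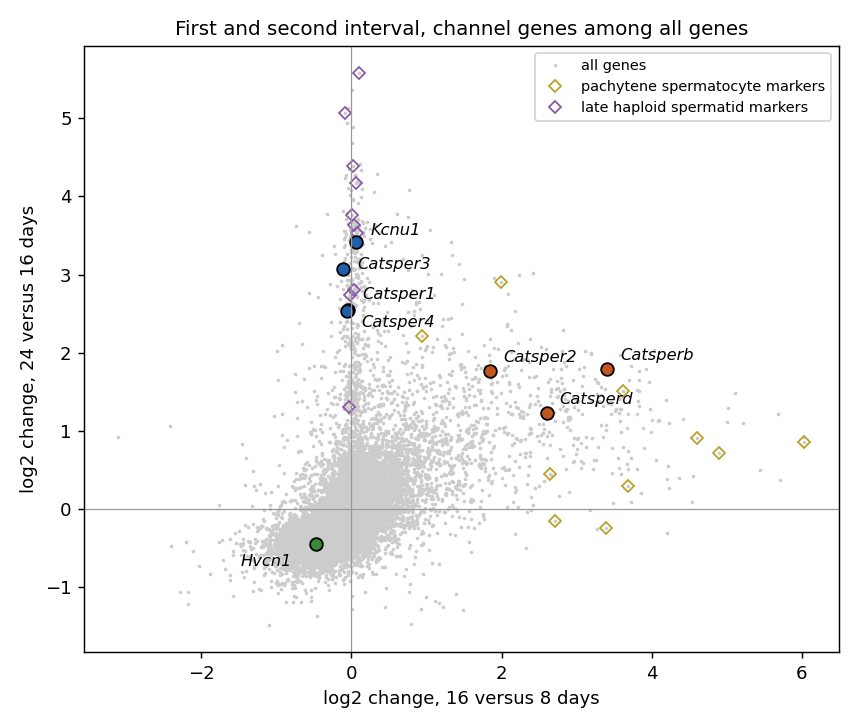
Log2 change at 16 against 8 days (horizontal axis) and at 24 against 16 days (vertical axis) for all 19935 genes (grey), 10 pachytene spermatocyte and 10 late haploid spermatid markers (open diamonds) and the 8 channel genes (filled circles). Kcnu1, Catsper3, Catsper1 and Catsper4 lie in the column of the late haploid markers, where the circles of Catsper1 and Catsper4 coincide. Catsper2, Catsperb and Catsperd lie to the right, above most pachytene markers. Early haploid markers are not drawn.

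Hvcn1 (gene ID 74096, chromosome 5) encodes a voltage-gated proton channel known from human sperm and also from phagocytes and B cells. Its values were 0.53, 0.43 and 0.43 at 8 days, 0, 0 and -0.01 at 16 days, and -0.53, -0.36 and -0.46 at 24 days. The 3 ages did not overlap, and each step was smaller than the rise of any other channel gene. Hvcn1 fell by 0.47 ± 0.08 on the log2 scale at 16 against 8 days (adjusted p = 0.00218) and by 0.45 ± 0.08 at 24 against 16 days (adjusted p = 0.00292). Over the whole span it fell 1.89-fold, with a 95% interval of 1.67 to 2.14 (adjusted p = 7.89e-06). It was the only channel gene with 2 blank cells, both at 16 days and taken as 0. With blanks left missing, which leaves 1 array at 16 days for this gene, the second fall was 0.44 with an adjusted p of 0.0529.

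Markers of cells other than germ cells were set beside Hvcn1, and their part in its result was not tested. Of 17 measured macrophage and other leukocyte markers, 2 fell at 16 against 8 days, 3 fell at 24 against 16 days and 8 fell at 24 against 8 days, with a median over the whole span of -0.30. These shares lie near those of all genes called lower in the first and second interval, 14.3% and 20.1%, and over the whole span the share of all genes was 35.2%. With each array centred on its median 1, 1 and 3 of them fell, where 2173, 1927 and 5236 of 19935 genes did. Their median per array was -0.21, 0.00 and -0.18 in replicates 1, 2 and 3 at 24 days and 0.16, 0.36 and 0.00 at 8 days. Of 7 Sertoli cell markers, 4 fell in each interval and all 7 fell over the whole span, with medians of -0.51, -0.54 and -0.98 for 16 against 8, 24 against 16 and 24 against 8 days. With centring 4, 3 and 5 of the 7 fell, beside the same centred counts over all genes. All 5 measured Leydig cell markers fell at 16 against 8 days, with a median of -2.18. At 24 against 16 days 1 of them rose, 1 fell and 3 were not called, with a median of 0.48. At 24 against 8 days all 5 fell, with a median of -2.01. With centring 5, 0 and 5 of the Leydig cell markers fell. Their median per array at 24 days was 0, 0 and -1.35 in replicates 1, 2 and 3, so the arrays of that age differed. As deposited, the median change of all genes was -0.02, -0.16 and -0.18 for 16 against 8, 24 against 16 and 24 against 8 days. In RefSeq, Hvcn1 overlaps Tctn1, a gene of the ciliary transition zone, which rose by 0.48 ± 0.09 at 24 against 8 days (adjusted p = 0.00145). Tctn1 rose by 0.38 ± 0.09 at 16 against 8 days (adjusted p = 0.0139). At 24 against 16 days it was not called, with a change of 0.10 ± 0.09 (adjusted p = 0.405).

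Arrays of 1 age differed in the channel genes and in the germ cell markers, in the same order in some cases and not in others. At 16 days replicate 2 was the highest array for Catsper2, Catsperb and Catsperd, and the median of the 10 pachytene markers was 0, 0.47 and -0.10 in replicates 1, 2 and 3. At 24 days replicate 1 was the highest array for Catsper1, Catsper3, Catsper4 and Kcnu1. The late haploid markers had medians of 4.198, 3.67 and 2.97 in replicates 1, 2 and 3, and the early ones 3.10, 2.61 and 2.37. Catsper1 did not keep that order in replicates 2 and 3. At 8 days replicate 3 had the highest pachytene median, -3.03 against -3.30 and -3.33 in replicates 1 and 2. It had the lowest values of Catsperb and Catsperd, but the highest of Catsper2, -1.42 against -1.60 and -2.07. The part of germ cell stage in these differences was not tested. On 2 arrays, the first replicate of 8 days and the second of 16 days, the median over 1027 olfactory receptor genes was 0.17, and it lay between -0.05 and 0.03 on the rest. Without these 2 arrays the counts of channel genes that rose or fell were the same in all 3 comparisons.

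**Figure D4:**
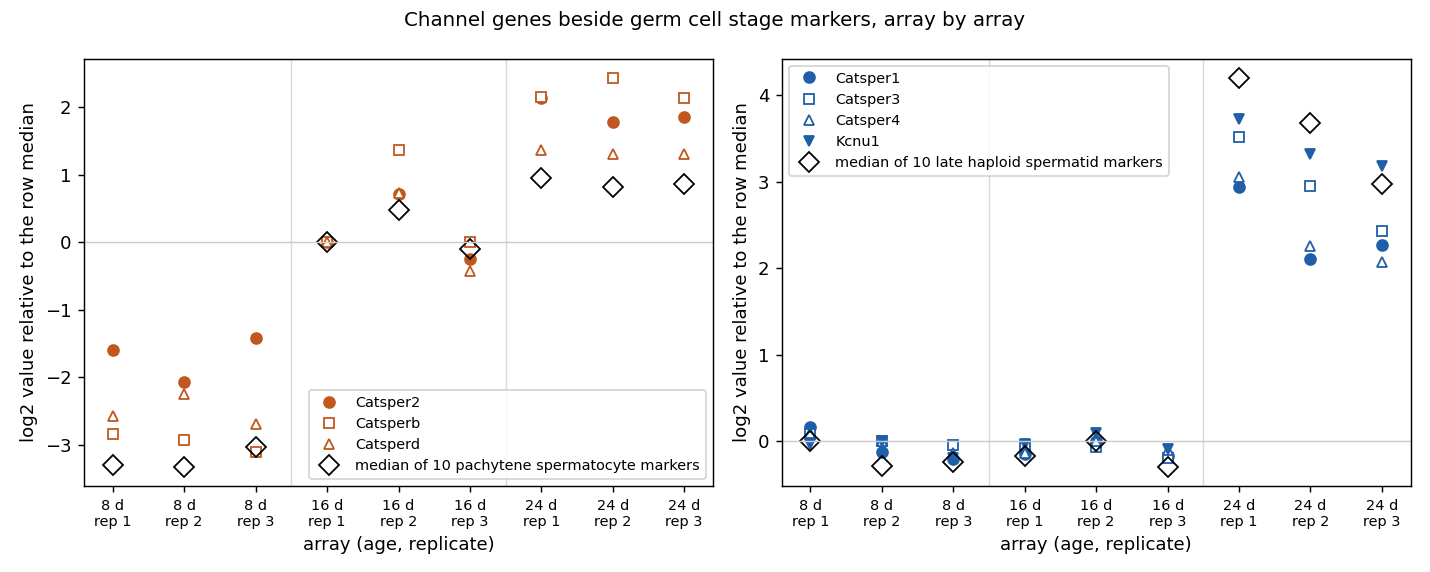
Log2 value relative to the row median (vertical axis) in each of the 9 arrays (horizontal axis), for Catsper2, Catsperb and Catsperd with the median of 10 pachytene spermatocyte markers (left) and for Catsper1, Catsper3, Catsper4 and Kcnu1 with the median of 10 late haploid spermatid markers (right). In the left panel replicate 2 is the highest of the 16-day arrays for genes and markers, and in the right panel replicate 1 is the highest of the 24-day arrays.

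Other subunits of the CatSper complex showed both time courses. Of 10 further subunits or associated proteins, 6 had a row of their own, and Catsperg1, Catsperg2, Catspere1 and Tmem249 had none. Of the 6, 4 rose at 16 against 8 days, 4 rose at 24 against 16 days and 5 rose over the whole span. Their medians were 2.81, 1.51 and 3.63 on the log2 scale. In the same comparisons 10.4%, 13.2% and 19.2% of all genes rose. The proteins of Catsperz (gene ID 67077) and Efcab9 (gene ID 69306) form a sensor module for pH and calcium in the channel, and their genes had different time courses. Catsperz had log2 values of -2.69, -3.33 and -3.21 at 8 days, 0, 0.87 and -0.23 at 16 days, and 1.74, 1.74 and 2.003 at 24 days, and it rose 9.76-fold at 16 against 8 days (adjusted p = 1.71e-05). Efcab9 had values of -0.07, -0.06 and -0.26 at 8 days, -0.13, 0 and 0.26 at 16 days, and 3.06, 2.73 and 2.38 at 24 days, with a change of 0.17 ± 0.17 at 16 against 8 days (adjusted p = 0.601) and a rise of 6.41-fold at 24 against 16 days (adjusted p = 3.86e-06). Efcab9 had a larger second than first change (adjusted p = 0.000667), and Catsperz did not pass that test, with a difference of -1.67 ± 0.46 and an adjusted p of 0.0723.

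Among the others, the transporter-like subunit Slco6c1 rose 6.89-fold at 16 against 8 days and 3.20-fold at 24 against 16 days. C2cd6, a C2-domain protein of the complex, rose 7.17-fold and 2.64-fold, and its second change was smaller than its first (adjusted p = 0.0486), which was not called with each array centred on its median (adjusted p = 0.0694). Catspere2, which also shares a row with Catspere1, a close copy, rose 9.61-fold at 16 days and then changed by -0.26 ± 0.15 at 24 against 16 days (adjusted p = 0.203), with a second-minus-first difference of -3.52 (adjusted p = 6.17e-05). Tmem262, a small membrane subunit, changed by 0.28 ± 0.14 at 24 against 8 days (adjusted p = 0.104), and it passed the test with each array centred on its median (adjusted p = 0.0256).

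Genes of the ionic and bicarbonate signals that act on these channels were also divided in time. Of 14 such genes 13 had a row. At 16 against 8 days 5 rose, where 10.4% of all genes rose and 14.3% fell. At 24 against 16 days 6 rose and 1 fell, where 13.2% of all genes rose and 20.1% fell. At 24 against 8 days 7 rose and 3 fell, where 19.2% of all genes rose and 35.2% fell. Their medians were 0.03, 0.12 and 0.57. Lrrc52 (gene ID 240899), the auxiliary subunit of SLO3, had values of 0, -0.31 and -0.43 at 8 days, -0.12, 0.21 and -0.30 at 16 days, and 2.35, 1.498 and 2.25 at 24 days. Its change of 0.18 ± 0.22 at 16 against 8 days did not pass the test (adjusted p = 0.734), and it rose 4.30-fold at 24 against 16 days (adjusted p = 0.000148), in the same interval as Kcnu1. Atp1a4, the sodium pump isoform of sperm, rose 8.36-fold at 24 against 16 days (adjusted p = 3.93e-05), after a change of 0.03 ± 0.27. Adcy10, the soluble adenylyl cyclase that bicarbonate activates, rose 1.81-fold and then 6.29-fold. The sperm sodium-proton exchanger Slc9c1 rose 8.56-fold at 16 against 8 days and 3.51-fold at 24 against 16 days. Slc26a8, an anion transporter of sperm, rose 7.96-fold and then 2.65-fold. The calcium pump genes Atp2b1 and Atp2c1, which many tissues express, fell by 1.15 ± 0.17 and 0.84 ± 0.16 at 24 against 8 days.

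**Figure D5:**
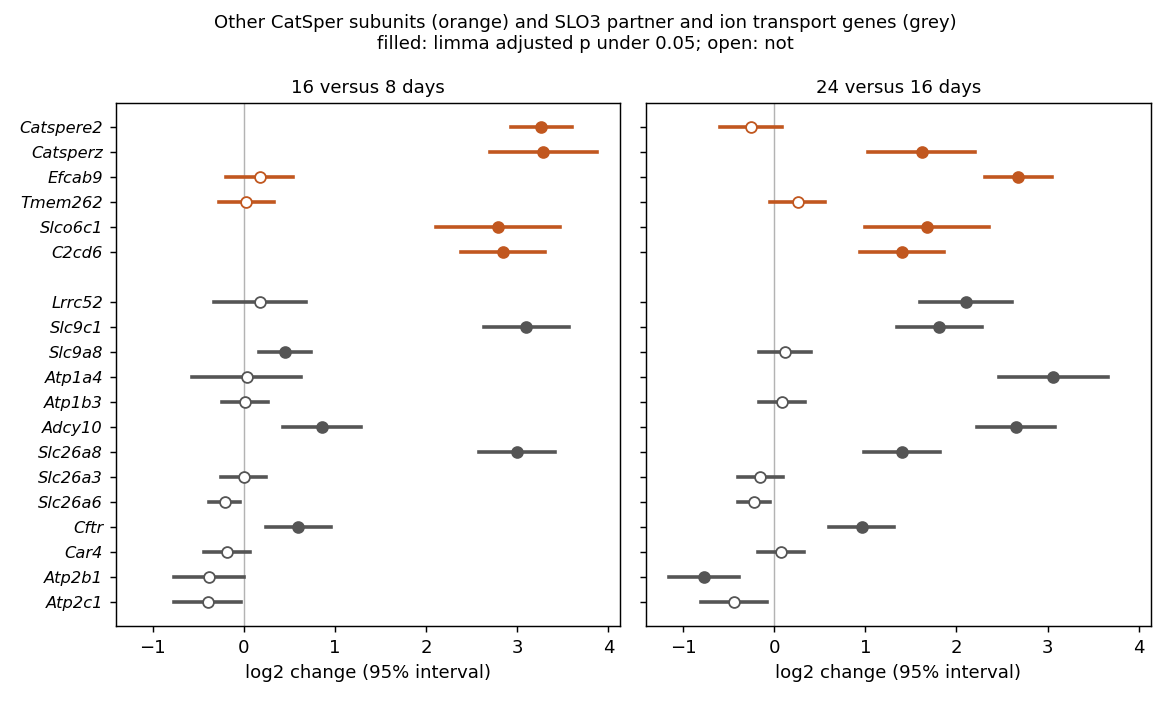
Log2 change with its 95% interval (horizontal axis) at 16 against 8 days (left) and 24 against 16 days (right) for 6 other CatSper subunits (orange) and 13 genes of SLO3, ion and bicarbonate transport (grey), filled where limma's adjusted p was under 0.05. Catsperz, Slco6c1, C2cd6, Slc9c1, Slc26a8, Adcy10 and Cftr are called higher in both panels. Catspere2 and Slc9a8 are called higher in the left panel only, and Efcab9, Lrrc52 and Atp1a4 in the right panel only. Atp2b1 is called lower in the right panel.

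Channels outside the CatSper and SLO3 complexes had smaller median changes. Of 13 measured genes for other channels described in sperm, 5 rose and 4 fell at 24 against 8 days, with a median of 0.00, where 19.2% of all genes rose and 35.2% fell. Pkdrej, a polycystin-like protein of the acrosome region, rose 4.84-fold over that span, the voltage-dependent anion channel Vdac2 2.40-fold and the T-type calcium channel subunit Cacna1h 2.12-fold. Ano1, a calcium-activated chloride channel, rose 2.06-fold at 16 against 8 days and changed by -0.09 ± 0.08 at 24 against 16 days (adjusted p = 0.385). Of 15 relatives of these channels known mainly from other tissues, 1 rose and 9 fell at 24 against 8 days, with a median of -0.32. With each array centred 6 of them fell, where 5236 of 19935 genes did. The 1 that rose was Tpte, by 4.34-fold, a phosphatase with a voltage-sensor domain that is itself known from testis. Kcnma1, the closest relative of Kcnu1, changed by -0.44 ± 0.15 (adjusted p = 0.0301), a fall that was not called with each array centred on its median (-0.32, adjusted p = 0.116).

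The genes with the most similar profiles were found by the root mean square difference over the 9 arrays. For Kcnu1 these were the sperm hyaluronidase gene Spam1, the microtubule protein gene Saxo1 and the outer dense fibre gene Odf1, at 0.10 each. For Catsper1 they were Acsbg3, Spata9 and Actl7a, at 0.12 to 0.14, for Catsper3 Asb17, Cfap97d1 and Tsga8, at 0.11 to 0.14, and for Catsper4 the testis kinase gene Tssk2, Izumo3 and Ctag2, at 0.12 to 0.13. For Catsperb they were Fam227b at 0.19, the exchanger gene Slc9c1 at 0.22 and Zpbp2 at 0.29. For Catsperd they were Cfap161, Ppp1r36 and Bbof1, at 0.14 to 0.18, and for Catsper2 Ccdc42, Dnajb13 and the centrin gene Cetn1, at 0.16 to 0.22. For Hvcn1 they were Slc9a3r2, Shisa4 and Pyurf, at 0.04 to 0.05. The likeness is a description over 9 arrays whose ages set most of the differences.

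Genes next to the channel genes on the chromosome were also measured. Of 16 protein-coding neighbours in RefSeq, 1 on each side of each gene, 15 had a row. At 16 against 8 days their log2 changes ran from -0.64 to 0.80, with 1 rising and 2 falling. Of all genes 10.4% rose and 14.3% fell in that comparison. At 24 against 16 days the changes ran from -0.30 to 0.30, with 1 rising and 1 falling, where 13.2% of all genes rose and 20.1% fell. At 24 against 8 days they ran from -0.76 to 0.59, with 3 rising and 5 falling, close to the 19.2% and 35.2% of all genes. In both of these comparisons with 24 days every measured neighbour changed by less than any of the 7 channel genes that rose. Pdia3, a chaperone gene that overlaps Catsper2 in RefSeq, changed by 0.10 ± 0.12 at 24 against 8 days (adjusted p = 0.521), and Lonp1, a mitochondrial protease gene beside Catsperd, fell by 0.76 ± 0.12 (adjusted p = 0.000366). These neighbours were looked up after the channel genes' values had been seen.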

How the data were processed

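The deposited values were log2 values of 28815 rows on 9 arrays, relative to each row's median. Per the labels' protocols, total RNA came from QIAzol lysates purified on miRNeasy columns, and whole-transcript sense targets were biotin-labelled. Background correction, normalization, summarization and centring are not given in the sources used here. Every row had 1 or more blank cells, 38964 in all; with blanks as 0 every row median was 0, and blanks were taken as 0. Rows with 1 gene symbol (21780) were averaged per symbol to 19935 genes. The channel genes had 1 row each, so that no averaging touched them.

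A linear model with the 3 age means was fitted to the 9 arrays (limma 3.58.1 under R 4.3.3, using lmFit then eBayes). It left 6 residual degrees of freedom, to which eBayes added 3.82. Tests were 2-sided, with Benjamini-Hochberg adjustment over all genes. Errors of changes are moderated standard errors. The fit was tested on simulated data before use.

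The channel genes, gene lists, markers and motifs were chosen with earlier results of these data known. Named genes are the 8 channel genes, list members and the 3 nearest profiles of each, leaving out Rik, Gm and multicopy names. Chromosomes and neighbours are from RefSeq (GRCm38.p6), used for names and order only; promoter coordinates are those of its promoter table. Protein patterns planned for the channels were not searched. Python 3.11.15 with pandas 2.3.3 and matplotlib 3.10.9 handled tables and figures.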

Additional observations from a re-analysis of the deposited data

How the results depend on the processing

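The counts of channel genes that rose, 3 at 16 against 8 days, 7 at 24 against 16 days and 7 at 24 against 8 days, and the 4 with a larger second change, kept within 1.5 times under every alternative run. Hvcn1 carried the counts of falling genes that moved. Catsperd carried the count of smaller second changes, and the drop from 7 to 6 rising genes at 24 against 16 days. Of genes that fell, 0 instead of 1 were called in all 3 comparisons with rows of 2 or more blank cells left out, which drops Hvcn1. In the first and second interval 0 were called with limma treat against 1.5-fold, with a replicate block on the 6 numbered arrays, and with these 6 arrays and no block, an alternative chosen after seeing the data. In the second interval 0 were called with blank cells left missing. With the block Hvcn1 changed by -0.48 at 16 against 8 days (adjusted p = 0.119), and with the 6 arrays and no block by the same amount (adjusted p = 0.0579). Catsperd at 24 against 16 days had an adjusted p of 0.0541 with the 6 arrays and no block. Of smaller second changes, 1 was called with the block, that of Catsperd, and 0 to 1 with single replicates left out, the 1 being Catsperd without replicate 3 of 16 days. Deviations from the age means were correlated for arrays numbered 1 and for arrays numbered 2, and ran between -0.46 and 0.20. Arrays with different numbers were not compared, so these values cannot decide whether the numbers pair the samples.

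Values near 0 changed sign. Catsper1 at 16 against 8 days was 0.057 with array weights, 0.0098 without replicate 1 of 8 days and replicate 2 of 16 days, and -0.12 to 0.063 with single replicates left out, and Catsper4 was 0.020 with array weights. The second-minus-first difference of Catsper2 was 0.43 with array weights, 0.44 without those 2 arrays and -0.49 to 0.48 with single replicates left out, and that of Hvcn1 was -0.012, -0.0085 and -0.024 to 0.061 in the same fits. The cause was not tested. The fit of array weights stopped before it converged. Over all 4 comparisons 605 of 628 values of single channel genes kept their direction and their side of the threshold. Over all genes, calls at 24 against 16 days ranged from 792 to 2943 higher and from 1 to 5755 lower, with limma treat lowest and the fit without those 2 arrays highest. At 16 against 8 days they ranged from 627 to 2307 higher and 69 to 3396 lower, and at 24 against 8 days from 1975 to 4455 higher and 1603 to 8359 lower, with limma treat lowest and array weights highest. The second-minus-first difference was called for 280 to 625 genes as larger and 154 to 527 as smaller. Single arrays moved counts over all genes by more than 1.5 times. At 24 against 16 days 4004 genes were called lower with all arrays, and the separate refits called 1672 without replicate 1 of 16 days, 2616 without replicate 3 of 16 days and 1764 without replicate 1 of 24 days. Without replicate 2 of 8 days 1855 in place of 2843 were called lower at 16 against 8 days. Larger second changes numbered 344 and 391 without replicates 1 and 3 of 16 days, and smaller ones 269 without replicate 1 of 16 days. With the replicate block 1162 genes were called higher and 809 lower at 16 against 8 days, 1198 and 96 at 24 against 16 days, and 3005 and 4571 at 24 against 8 days.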
